A study of Mus musculus with 22 samples.

Results

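C/EBP beta sites that were listed after the vasopressin analog dDAVP and not after vehicle, and that lay in long stretches without protein-coding genes, were examined in mouse collecting duct cells. The members were chosen by the presence of a row in one list and not in the other, and by position. A site was taken when its row in the dDAVP peak list overlapped no row of the vehicle list by even 1 bp, and when its centre lay outside every protein-coding gene and more than 50 kb from the nearest end of one. In all, 246 of the 2401 dDAVP peaks met this rule, which is 11.2% (95% Wilson interval 9.97 to 12.6) of the 2192 peaks listed after dDAVP alone. The other 1946 were 427 sites within 1 kb of a gene end, 887 inside genes and 632 between genes within 50 kb of one. The 5 best-scoring of the sites beyond 50 kb lay beside Trib1, Cebpb, Myc, Ccdc59 and Grhl2. The Trib1 row, described below, is a fragment of a region that was called in both treatments.

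The cells were mpkCCD, clone 11, a line of cortical collecting duct cells derived from a single clone, all kept without serum or hormones before treatment. Chromatin was immunoprecipitated after 30 min with 0.1 nM dDAVP or with vehicle, in 2 samples per treatment for C/EBP beta and 4 per treatment for CREB1, within a series of 22 samples of which 10 were inputs. A C/EBP beta input of each treatment was shared with a CREB1 experiment. The series was designed to locate the binding sites of both factors with and without dDAVP. Each group was deposited as a single peak list, so no value below has a replicate error, no test over samples could be made, and the read depth is unknown. A site that the vehicle list lacks may have been bound below what the peak caller accepted. No expression was measured, so collecting duct identity could not be checked from marker genes.

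C/EBP beta is a leucine zipper transcription factor that binds DNA as a dimer, with itself or with other zipper factors such as CHOP and ATF4, and that takes part in acute phase, metabolic and stress responses. Its preferred sequence is a palindrome of a pair of half-sites. Many of its sites in other tissues lie in enhancers, which can act on a gene from a long distance, so the nearest gene is not necessarily the gene a site acts on. dDAVP acts through the V2 receptor, which raises cAMP and activates protein kinase A in these cells.

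Sequence could be shown for the few sites that overlap a window around the annotated start of a non-coding gene. Such a site need not hold the start, and the Gli3 and Phlda1 sites below overlapped no non-coding gene. RefSeq start windows, which run from 250 bases before to 50 bases after a start, covered part of 8 of the 246 sites. The motif TTGCNNAA, a general form of the C/EBP palindrome, was searched on both strands, together with TGATGCAA (a C/EBP and ATF composite), TGACGTCA (the cAMP response element) and TGANTCA (AP-1). The sequences below are shown because 3 hold the C/EBP letters and the other 2 belong to the sites beside Grhl2 and Cebpb; capitals mark TTGCNNAA or its reverse complement. All are on the plus strand of mm10, 5′ to 3′, from RefSeq (GRCm38.p6).
Irs2 site, chr8:10899695-10899949: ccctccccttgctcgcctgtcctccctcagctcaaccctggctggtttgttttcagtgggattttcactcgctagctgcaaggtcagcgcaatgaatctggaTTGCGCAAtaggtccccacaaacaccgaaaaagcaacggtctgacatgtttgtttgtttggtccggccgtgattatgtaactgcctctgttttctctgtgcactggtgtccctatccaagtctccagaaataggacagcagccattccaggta
Gli3 site, chr13:15806993-15807200: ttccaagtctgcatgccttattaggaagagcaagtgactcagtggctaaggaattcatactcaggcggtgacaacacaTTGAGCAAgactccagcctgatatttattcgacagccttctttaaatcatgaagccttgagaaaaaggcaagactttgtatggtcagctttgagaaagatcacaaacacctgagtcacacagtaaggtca
Phlda1 site, chr10:111582801-111582973: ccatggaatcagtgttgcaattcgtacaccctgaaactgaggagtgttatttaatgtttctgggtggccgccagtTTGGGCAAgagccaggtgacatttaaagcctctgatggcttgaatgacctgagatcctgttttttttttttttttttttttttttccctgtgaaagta
Grhl2 site, chr15:37135840-37135996: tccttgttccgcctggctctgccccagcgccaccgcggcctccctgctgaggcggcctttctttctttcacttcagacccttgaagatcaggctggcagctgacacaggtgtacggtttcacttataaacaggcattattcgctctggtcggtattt
second Cebpb site, chr2:167777575-167777749: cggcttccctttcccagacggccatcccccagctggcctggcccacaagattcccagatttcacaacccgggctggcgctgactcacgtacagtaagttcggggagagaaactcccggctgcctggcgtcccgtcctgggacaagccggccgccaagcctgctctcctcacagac

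The Irs2 site, 84859 bp from the gene of an insulin receptor substrate, held the full palindrome TTGCGCAA 22 bp from its centre. It is shown whole, had a score of 169, and lay across the start of the non-coding gene 4833411C07Rik. The Gli3 site, 77069 bp from the gene of a hedgehog pathway transcription factor, matched as TTGCTCAA 21 bp from its centre and also held AP-1 letters at 65 and 89 bp. The Phlda1 site, 74169 bp from that gene, matched as TTGCCCAA at 61 bp, with 55.6% of its 311 bp shown. The second Cebpb site, shown whole, held TGACTCA 5 bp from its centre and none of the other letters, and the 157 of 374 bp shown of the Grhl2 site held none of them. Windows at the remaining 3 sites, near Hmgb1, Tle3 and Cldn1, also held none.

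The centre was covered at 4 of the far sites, and 2 of these had TTGCNNAA within the 100 bases around it. Among all dDAVP peaks with a covered centre the count was 74 of 178 (41.6%, 34.6 to 48.9). The same letters were in 1293 of 32851 start windows when the middle 100 bases were searched (3.94%). The composite TGATGCAA was in 0 of the 4 far centres, in 9 of 178 peak centres and in 0.362% of the windows. With 4 sequences the far sites cannot be set apart from other peaks. The sequence of the other 238 sites was not used here.

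The far site with the highest score proved to be part of a larger region. The row beside Trib1, which encodes a pseudokinase that directs C/EBP alpha to degradation, spanned chromosome 15 from 59783859 to 59784054 (196 bp) with a score of 2573. It carried the same replicate 1 peak name and the same score as the next row, from 59784197 to 59784689, which overlapped a vehicle peak of score 216. The rows were 142 bp apart, and the vehicle peak began 198 bp past the far row. The Trib1 row therefore met the rule as a fragment of a region that was called in both treatments. Of the 2401 rows only 4 shared a name in this way, 2 rows for each of 2 names, and the other name belonged to a pair inside a gene. Without it 245 sites remain. Scores, counts of sites by interval, sites per Mb and the share of sites with a far neighbour are given with and without it, and other counts include it.

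Every C/EBP beta row carries a score that the authors gave its replicate 1 peak, used here to rank sites within a list. For the far sites it ran from 31 through a median of 170 (order-statistic interval 153 to 193) to 2573, and to 1376 without the Trib1 row, when the median was 169. Median scores were 191 at gene ends, 169 inside genes and 187.5 between genes within 50 kb. The interval of the far sites contained the medians of all 3 other groups. The 28 far peaks that were also listed after vehicle scored 426 to 2740, with a median of 1062.5. Presence in the vehicle list chose these groups, so the gap between them is only a description. Widths of the far sites ran from 100 to 562 bp with a median of 256 bp. In the other dDAVP-only groups the median widths were 253 to 263 bp, and single widths ran from 3 to 595 bp. Where a row is part of a replicate 1 peak, as at Trib1, its score is that of the whole peak. Scores rose with width among the far sites (Spearman's rho 0.75, n = 246, and 0.77 without the Trib1 row), as among the 1946 other dDAVP-only sites (0.77), and were not ordered by distance from the gene (rho −0.05). These correlations run across sites of the same list and describe that list. In the upper 10% of scores of the list were 7 far sites (2.85%), 6 of 245 without the Trib1 row, against 2.82% of sites inside genes, 2.53% between genes within 50 kb and 6.32% at gene ends.

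**Figure D1:**
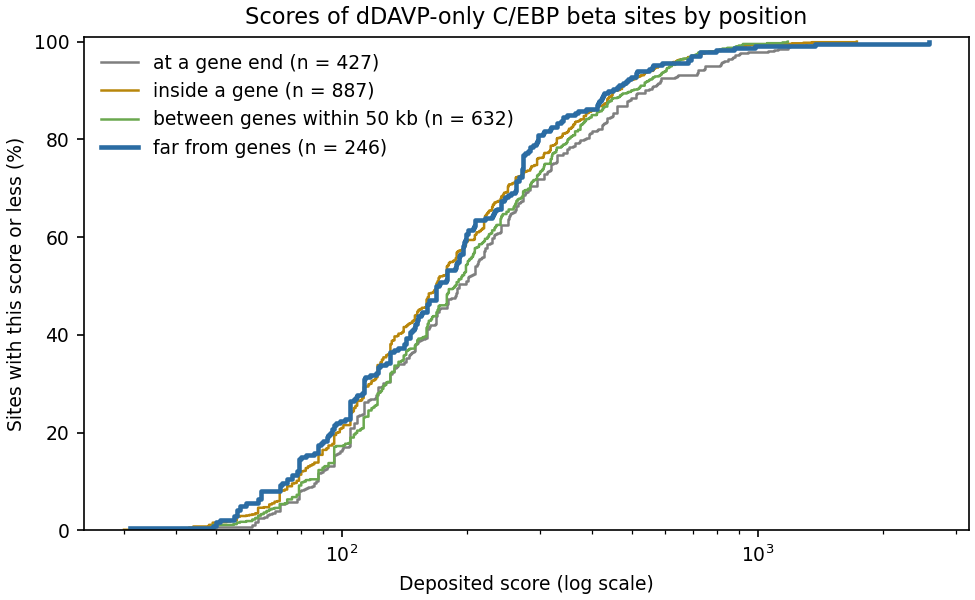
Cumulative share (%) of dDAVP-only C/EBP beta sites against the deposited score (log scale), 1 line per position group. The line of the 246 far sites, with a median of 170, runs close to that of sites inside genes, with a median of 169, and ends at the Trib1 row of 2573.

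The best-scoring far site that was not a fragment lay 69695 bp downstream of Cebpb, the gene of C/EBP beta itself. It spanned chromosome 2 from 167759930 to 167760325 (396 bp), scored 1376 and ranked 69 in the dDAVP list. The interval from Cebpb to Ptpn1, a tyrosine phosphatase gene, held 2 more far sites of low score, 56 and 55, at 87230 and 133089 bp from Cebpb. Also there was a site listed in both treatments, 143281 bp from Cebpb, with scores of 1378 after dDAVP and 196 after vehicle in their own lists. The strong dDAVP-only site and the strong shared site thus had nearly equal dDAVP scores.

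Further along chromosome 15, the interval from Myc to Gsdmc held the most far sites of any, 7. Myc encodes a growth-promoting transcription factor, and Gsdmc a gasdermin. Scores at 89508, 167079, 214421, 338274 and 407045 bp from Myc were 102, 112, 474, 691 and 987, and the last of these spanned 62397199 to 62397614. Another 2 sites, at 704659 and 1732827 bp, scored 74 and 71. The first 3 lay inside the non-coding gene Pvt1, named here after its values were seen. At 27463, 465844 and 510816 bp were peaks shared with vehicle, which scored 851, 1104 and 1591 after dDAVP and 92, 184 and 177 after vehicle. The 5 far sites between the first and the second shared site thus rose in score with distance from Myc, as listed, while those beyond were weak.

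Both far sites between LOC115488529 and Grhl2 were among the best 23 by score. Grhl2 encodes a grainyhead factor of epithelial cells including the collecting duct. The stronger, from 37135840 to 37136213, scored 794 at 96795 bp from Grhl2, and the other, from 37120377 to 37120691, scored 464 at 112287 bp. Grhl2 also had a dDAVP-only site 249 bp from its end, with a score of 242. No vehicle peak lay within that interval, and the nearest was 3688424 bp from the stronger site.

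The scores of the other best-ranked sites were 877 beside Ccdc59 (176343 bp), 727 beside Med13l (106023 bp), 726 beside Itprid2 (65193 bp) and 693 beside Nova1 (275818 bp). Med13l encodes a subunit of the Mediator kinase module and Nova1 a neuronal splicing factor. On the far side of the Ccdc59, Med13l and Itprid2 sites lay Ppfia2, Spring1 and Neurod1. A tie at 680 closed the list, with Ell2, an elongation factor gene, 164723 bp from a site whose other neighbour was Pcsk1, and with Magi3, a scaffold gene, 59335 bp from a site whose other neighbour was Lrig2. These 6 peaks were 299 to 524 bp wide, and none overlapped a CREB1 peak. Some had company: on the same side of Magi3 lay sites of 297 at 75624 bp and 296 at 86011 bp, and on the same side of Nova1 a site of 510 at 406764 bp.

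Distances ran from 50141 bp through a median of 122 kb to 1542294 bp. Within 100 kb of a gene lay 93 sites, between 100 and 200 kb 81, between 200 and 500 kb 51, and farther out 21. The site farthest from any gene end was 1542294 bp from Efna5, an ephrin gene, with Nudt12 on its other side, and scored 329. The next were 1326606 bp from Zeb2, a repressor of epithelial genes (score 134), with Acvr2a on the other side, and 1169829 and 1086055 bp from Cited2, a CBP/p300 partner (scores 146 and 231), with Nmbr on the other side. The fifth was a second site on the same side of Zeb2, at 904645 bp (score 131). Just inside the limit were sites at Sh3bp4 (50141 bp, score 263), Foxq1 (51248 bp, 152) and Nr2f2 (51277 bp, 88). Just outside were dDAVP-only sites at Abcd3 (49516 bp, 108), Lmntd1 (48961 bp, 497) and Irs1 (48813 bp, 131).

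For scale, sequence more than 50 kb from every protein-coding gene made up 36.2% of the length between the outermost genes, or 941 Mb. It held 245 of the far sites, 1 more being outside those genes, which is 0.260 sites per Mb (exact Poisson interval 0.229 to 0.295). There were 0.899 dDAVP-only sites per Mb inside genes, 1.06 between genes within 50 kb and 5.45 within 1 kb of gene ends. Assembly gaps and repeats were not removed from these lengths. Of the vehicle peaks 28 of 209 were as far from genes (13.4%, 9.43 to 18.7), and of the CREB1 peaks on chromosomes 1 of 783 after vehicle and 0 of 404 after dDAVP, which allows up to 0.743%. In the far sequence 246 of 274 dDAVP peaks had no vehicle peak (89.8%), against a background of 91.3% over the whole list; the rule used that contrast, and nothing is read from it.

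**Figure D2:**
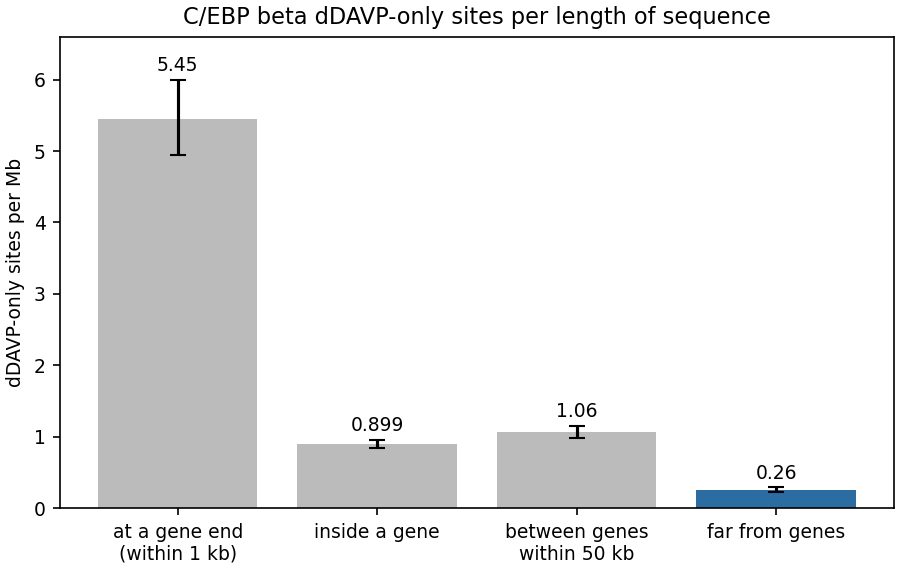
dDAVP-only C/EBP beta sites per Mb of sequence in each position group, with exact Poisson 95% intervals that cover counting error alone. Far sequence held 0.260 sites per Mb, the lowest of the 4 groups, and gene ends held 5.45.

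The sites were spread unevenly over chromosomes. Chromosome 10 held the most, 28, at 0.628 per Mb of far sequence (0.418 to 0.908), and chromosome 16 had 23 at 0.656 per Mb (0.416 to 0.985). Chromosome 4 had 5 at 0.0856 per Mb (0.0278 to 0.200), and chromosome 11 had 3 at 0.0861 per Mb. Chromosome X had 1 site in 77.9 Mb of far sequence, beside Acsl4, a fatty acyl-CoA ligase gene. All dDAVP peaks were also few there (20, against 160 on chromosome 10 and 117 on chromosome 16). Chromosome 4 had 80 peaks in all and chromosome 11 had 166. The intervals of chromosomes 10 and 16 did not overlap those of chromosomes 4, 11 and X. These chromosomes were picked as the highest and lowest after the rates were seen. The intervals also treat sites as independent, though many lie together between the same genes, so nothing was tested.

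**Figure D3:**
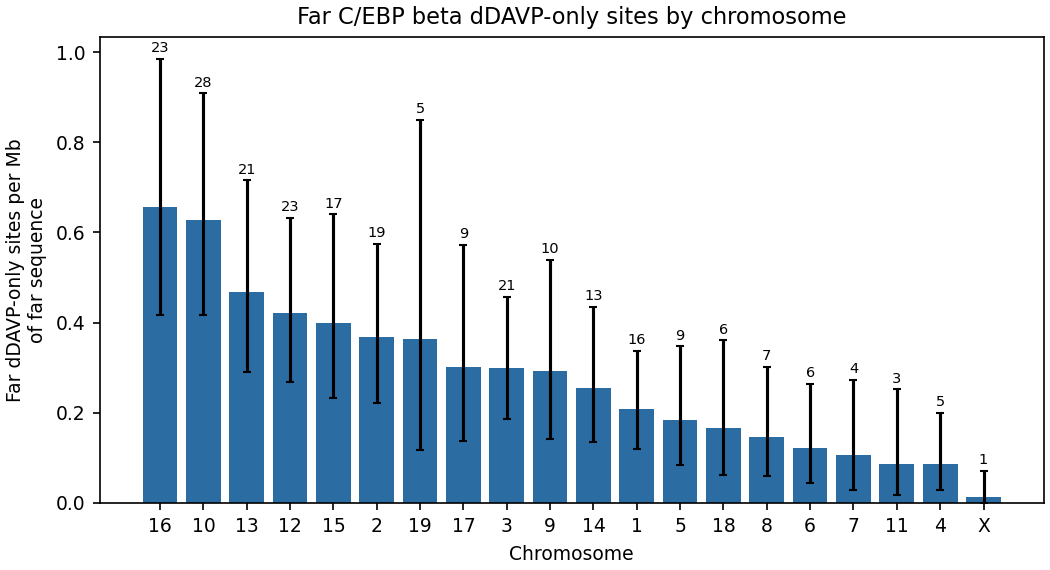
Far dDAVP-only sites per Mb of far sequence on each chromosome, with exact Poisson 95% intervals and the number of sites above each bar. Chromosomes 16 and 10 stand highest at 0.656 and 0.628, and chromosome X lowest with 1 site.

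Sites often came several to an interval. Of 2768 intervals of more than 100 kb between neighbouring genes, 174 (6.29%) held a far site, 131 of them 1 and 43 of them 2 or more. Those 43 held 114 of the sites (46.3%), and without the Trib1 row 42 intervals held 112 of 245 (45.7%). Intervals with a far site had a median length of 425 kb, against 217 kb for those without, so longer intervals held more. A vehicle peak was in 18 of the 174 intervals (10.3%) and in 25 of the other 2594 (0.964%). These shares were not adjusted for the greater length of the first group.

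After Myc to Gsdmc, the fullest intervals were Nmbr to Cited2 and Serp2 to Lacc1, with 6 sites each. The 6 between Nmbr and Cited2 scored 131 to 273 over 2102 kb, and 5 of them were nearer to Cited2. The 6 between Serp2 and Lacc1 spanned 299 kb; the one 95864 bp from Serp2 scored 487 and the others 63 to 143. Adamts5 to N6amt1 had 5 sites, among them 3 of 263, 263 and 267 within about 50 kb, the closest 261984 bp from N6amt1. Agtr1b to Tbl1xr1 had 4 sites of 92 to 271 beside a shared site of 611. Zeb2 to Acvr2a also had 4, with lower scores of 57 to 134. A further far site lay within 50 kb of 49 of the 246 (19.9%, 15.4 to 25.4). The same count within their own group was 18.7% for sites between genes within 50 kb, 17.4% inside genes and 9.37% at gene ends. Counting dDAVP-only sites of any position as neighbours, the shares were 22.8% for far sites, 22.2% at gene ends, 25.4% inside genes and 30.9% between genes within 50 kb. The order of the groups thus depended on which neighbours were counted.

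**Figure D4:**
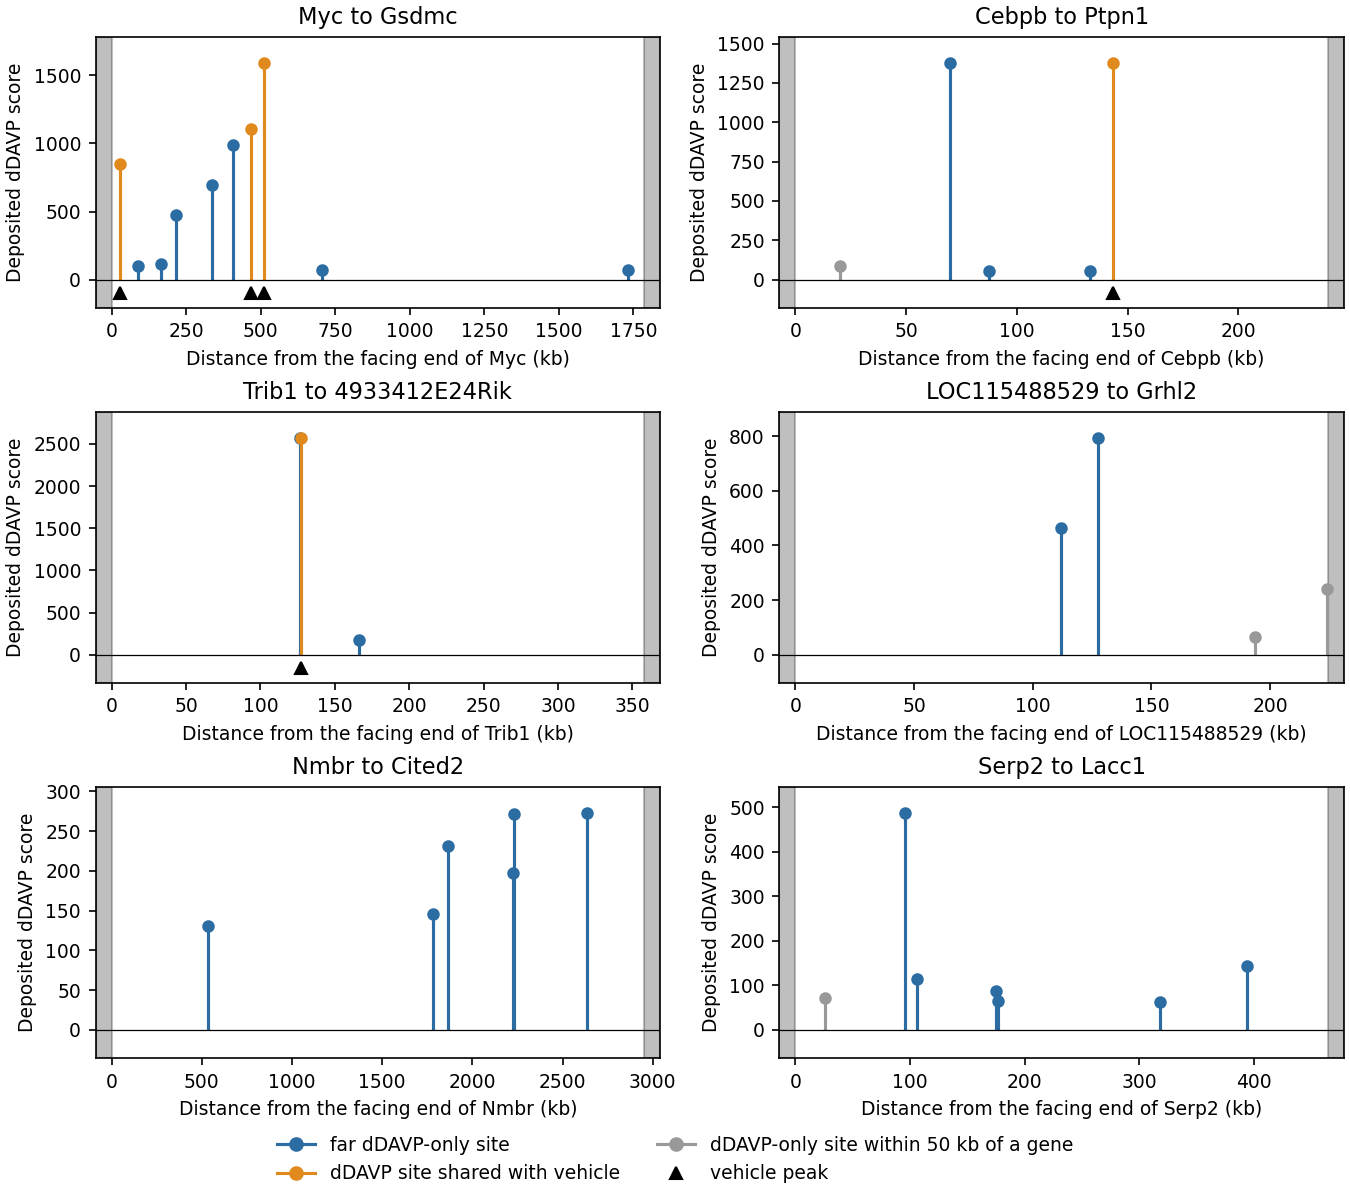
C/EBP beta peaks after dDAVP in 6 intervals between neighbouring genes, by distance (kb) from the facing end of the first gene and by deposited score; grey bands are the genes and triangles are vehicle peaks. Between Myc and Gsdmc 5 far sites lie between the first and the second shared site, and beside Trib1 the fragment is hidden behind the shared row at the same score.

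Non-coding genes, which the rule ignored, ran under 59 of the 246 sites (24.0%, 19.1 to 29.7), and 93 (37.8%, 32.0 to 44.0) lay within 5 kb of one. Non-coding genes covered 12.8% of the far sequence, and 19.5% of it was within 5 kb of one. The shares for sites between genes within 50 kb were 26.9% and 42.4%, on sequence of which 14.8% and 28.4% qualified. Of the 59, 57 overlapped a long non-coding RNA gene, and 0 overlapped a microRNA gene. The best scores among them were 794 at Gm34820 and Gm41302 beside Grhl2, 557 at Gm20755, 548 at Slco6b1, 513 at Gm4681 and 510 at 9130204K15Rik. Sites in non-coding genes had a median score of 207 (51 to 794), and the 187 in no annotated gene 162 (31 to 2573, or to 1376 without the Trib1 row). No gene of any type lay within 50 kb of 53 sites, the best of which was the site of score 987 beyond Myc.

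CREB1, the cAMP-responsive factor that was mapped beside C/EBP beta, had no peak at the far sites. None of the 246 overlapped a CREB1 peak of either treatment, which allows up to 1.22% of sites, and the closest CREB1 peak was 60793 bp away. Only 1 of 783 CREB1 peaks after vehicle and 0 of 404 after dDAVP lay as far from genes. The position rule thus left little room for an overlap, and its absence says little about these sites. At gene ends 33 of 427 dDAVP-only sites overlapped one (7.73%, 5.56 to 10.7), inside genes 7 of 887 (0.789%) and between genes within 50 kb 5 of 632 (0.791%). The last pair of shares was under the limit that the far sites allow, so no difference from them was detectable.

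Strand was given for the nearest gene of 196 sites. The sites nearest to Trib1, Myc and Grhl2 were among those without it and are left out here. Of these, 128 lay on the upstream side, past the start of the gene (65.3%, 58.4 to 71.6). Only part of the far sequence entered the matching share by length, in which 52.8% was nearest to the start side of a gene. Of sites between genes within 50 kb, 277 of 489 lay upstream (56.6%, 52.2 to 61.0). Examples were the sites beside Med13l, Nova1, Ell2 and Zeb2 upstream, and the sites beside Cebpb, Ccdc59 and Tfap2a downstream. Sites in the same interval share a gene and are not independent, and no test was made.

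Genes on either side of the sites were compared with gene lists, counting as possible the 4505 genes that border an interval of more than 100 kb. Of all these, 343 (7.61%) had a far site next to them. Of collecting duct and epithelial transcription factors 6 of 26 did (23.1%, 11.0 to 42.1): Sox4 at 74813 bp (score 188), Grhl2, Gata3 at 97897 bp (236), Tfap2a at 145822 bp (482), Klf5 at 298897 bp (209) and Klf4 at 951488 bp (209). The last 2 sites were closer to the gene on their other side, Klf12 and Actl7b. Gata3 and Tfap2a encode factors of nephric and epithelial development, and Sox4 and the Klf genes encode further regulators of epithelia. Immediate early and AP-1 genes gave 5 of 16 (31.2%, 14.2 to 55.6): Btg1, an antiproliferative gene, at 63442 bp (196), Dusp5 at 77582 bp (148), Myc at 89508 bp (102), Dusp6 at 173687 bp (80) and Klf6 at 355705 bp (209). Dusp5 and Dusp6 encode phosphatases that act on ERK. The Dusp5 and Klf6 sites given here were closer to the gene on their other side. The list of C/EBP family, acute phase and cytokine genes gave 3 of 5: Cebpb, Trib1, whose nearest row is the fragment and whose other site scored 178 at 166226 bp, and Ptgs2, the cyclooxygenase gene, at 148637 bp (score 122). The Ptgs2 site was closer to the gene on its other side.

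In the amino acid response driven by ATF4, 3 of 9 possible genes flanked a site, all of them amino acid transporters. These were Slc38a2 at 71311 bp (score 420), Slc1a4 at 103528 bp (251) and Slc7a11 at 479744 bp (193). The Slc7a11 site was closer to the gene on its other side. Genes of collecting duct transport and the vasopressin response gave 0 of 12 and clock genes 0 of 8, with upper interval bounds of 24.2% and 32.4%. Developmental transcription factor families gave 20 of 138 (14.5%, 9.58 to 21.3), such as Foxq1, Nr2f2, Neurod1 at 67034 bp (726) and Pou1f1 at 69641 bp (160). Cell adhesion and guidance families gave 11 of 90 (12.2%), such as Ephb3 at 116217 bp (57), Adgrl2 at 123057 bp (414), Cntn5 at 198881 bp (364) and Efna5, and secreted growth factors 5 of 58 (8.62%), such as Vegfa, the vascular growth factor gene, at 58765 bp (199), Inhba at 74232 bp (340), Inhbb at 121407 bp (96) and Fgf9 at 140972 bp (50). Chemosensory receptors gave 1 of 108 (0.926%), Vmn1r238. Of the family examples, the Neurod1 and Ephb3 sites were closer to the gene on their other side. The lists are small, they were chosen with earlier results of these data known, and interval length was not matched. Nothing particular to a list is therefore read from these shares.

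Nearest genes of the far sites had a C/EBP beta dDAVP peak of their own, within 5 kb of an end, in 19 of 194 cases (9.79%, 6.36 to 14.8). Genes that border intervals without a far site had one in 161 of 4163 cases (3.87%, 3.32 to 4.50), and all protein-coding genes in 5.01%. Among the 19 were Trib1, Cebpb, Myc, Grhl2, Ahr, Irf2bp2, Hspa9, Slc1a4, Cd47 and Id2, examples chosen after their values were seen. For vehicle peaks the counts were 3 of 194 (1.55%) and 18 of 4163 (0.432%), and for CREB1 peaks after vehicle 7 of 194 (3.61%) and 105 of 4163 (2.52%). For CREB1 peaks after dDAVP they were 6 of 194 (3.09%, 1.43 to 6.58) and 53 of 4163 (1.27%, 0.975 to 1.66). The intervals of the pair overlapped in both CREB1 lists and for the C/EBP beta vehicle list. Those pairs rest on 7, 6 and 3 genes, so the overlap does not set the dDAVP peaks apart from the other lists. The first group held nearest genes only, and interval length was not matched. Over all protein-coding genes the shares were 0.513% for C/EBP beta vehicle peaks, 5.05% for CREB1 peaks after vehicle and 2.67% for CREB1 peaks after dDAVP. For CREB1 peaks after vehicle, the 3.61% of the nearest genes was thus below the share of all genes.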

How the data were processed

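For each antibody and treatment the authors deposited 1 peak list, 4 in all. Per the submitters' processing notes, mm10, bedtools, MACS2, SAMtools and BWA were used, with no versions or roles given, and the way replicates entered a list is not stated there. The C/EBP beta rows carry a deposited score of unstated scale. Their deposited names refer to replicate 1 and to MACS2 settings (q 0.01, bandwidth 300, 1 duplicate). The deposited positions (other values) are peak starts and ends.

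Positions were taken in mm10, counted from 1, and set against 21631 protein-coding genes on 20 chromosomes of RefSeq GRCm38.p6, and against its non-coding genes. Strand came from a single RefSeq start window per gene. Each distance is that of a peak's centre from the nearest gene end. Intervals are 95% Wilson intervals for shares, exact Poisson intervals for sites per Mb and binomial order-statistic intervals for medians; they cover counting alone. The limit for a count of 0 uses 3 counts. No test was run, because regions are not replicates and each group has 1 list. A set of 10 gene lists was used, 6 by symbol (193 entries, all found) and 4 by symbol pattern. The members and lists were chosen with earlier results of these data known.

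Genes were named by rule: neighbours of the 10 best-scoring and 5 farthest sites, of the 5 fullest intervals (ties by summed score), and of the 3 sites on each side of the 50 kb limit; up to 6 per list and 4 per family, the closest first; and up to 6 non-coding genes, by score. Genes beside printed sequences, on chromosome X, with companion sites or with a vehicle peak close by were named after their values were seen. Classification was tested on simulated peaks. Python 3.11.15, pandas 2.3.3 and scipy 1.17.1 were used. The planned motif search over all sites needs the genome sequence and was replaced by a search in RefSeq start windows. A neighbouring gene that the naming rule takes is not reported here.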

Additional observations from a re-analysis of the deposited data

How the results depend on the processing

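Of 29 alternatives, 17 stayed within the interval of the main value or within 1.5 times a count. At a limit of 25 kb there were 393 sites and 0.349 per Mb, and at 100 kb 153 sites and 0.207 per Mb. With the upper 50% of scores 103 sites were left, at 0.109 per Mb, and the share with another far site within 50 kb was 11.7%. That share was 2.44% within 10 kb and 39.4% within 200 kb, against 19.9%. With genes of every type 53 sites were left. The share at a non-coding gene was 24.0% for overlap and 78.5% within 50 kb, against 37.8% within 5 kb. Without the Trib1 fragment, an alternative chosen after seeing the data, the values were 245 sites, a median score of 169, 0.259 per Mb and 19.2% with another far site within 50 kb. Without chromosome X, also added later, there were 0.283 sites per Mb. In a separate alternative added later, which kept chromosome X, 56 of 80 sites (70.0%) in the upper 50% of scores were upstream of the nearest gene. The motif alternatives were not run, since the sequence of most sites was not used here. No paired analysis was possible because each group is a single list with no replicate columns, and no replicate could be left out for the same reason. The depth behind the lists is unknown, so the vehicle list of 209 peaks limits what can be said of any single site.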

Other observations

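The replicate 1 peak numbers in the names ran up to 2707 for C/EBP beta after dDAVP and up to 329 after vehicle. These are the highest numbers among the rows kept, so each replicate 1 list was at least that long. Their full lengths are not known. Of those numbers at most 88.6% after dDAVP and 63.5% after vehicle are in the deposited lists.

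Besides the Trib1 fragment, 10 far sites had a vehicle peak within 50 kb. The site beside Slc38a6, a member of the same transporter family as Slc38a2, scored 425 and was centred 1809 bp from a vehicle peak. The site 121286 bp from Hes1, a Notch target gene, scored 172 and was centred 2481 bp from one. The Slc38a2 site (score 420) was 31540 bp and the site beside Nampt (score 305), an enzyme of NAD synthesis, 30862 bp from one. For the median far site the nearest vehicle peak was 3.03 Mb away and the nearest other dDAVP peak 156 kb away. The vehicle list held 209 peaks and the dDAVP list 2401, and the rule removed overlaps with vehicle peaks. These distances therefore cannot be compared with each other, and distances to vehicle peaks are not given here for other dDAVP-only sites.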
